A study of Mus musculus with 12 samples.

Results

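Ano2 encodes anoctamin 2 (TMEM16B), a calcium-activated chloride channel, and the H3K9me3 regions that the authors' comparison table assigns to it are described here. The gene spans chr6:125690419-126040133 on the forward strand (RefSeq, GRCm38.p6), a length of 349.715 kb. Every region carrying the symbol Ano2 was taken, which gave 38 of the 50654 regions listed. The gene was picked because its regions were called higher in KO, so the H3K9me3 difference between KO and WT at Ano2 is given as a description with no test.

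The study, by its title, concerns the histone methyltransferase SETDB1 in mice. Setdb1 itself has no listed region, so the H3K9me3 table holds no check of its deletion. KO animals are labelled Nestin-KO and controls WT, all C57BL/6, and Nestin is a gene of neural progenitors. The sources used here do not say how the deletion was driven in KO animals or which other alleles the WT animals carried. All cells were neural progenitor cells, grown as neurospheres from the ganglionic eminence at E15.5, and native ChIP-seq (chromatin cut without cross-linking) used 100000 nuclei per library. H3K9me3 was measured in 3 KO and 3 WT animals, and H3K27ac in 3 other KO and 3 other WT animals. All 3 KO animals of the H3K9me3 set were male, against 1 male and 2 females in WT, so sex and genotype cannot be fully told apart there. The H3K27ac set had 2 males and 1 female in each genotype. Most animals of the H3K9me3 set shared the number in their title only with animals of the same genotype. What this number means is not stated, and it cannot be fully told apart from genotype either.

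H3K9me3 is a mark of silent chromatin, laid down by SETDB1 among other enzymes and typical of repeats and of clustered receptor genes. H3K27ac marks active enhancers and promoters. Anoctamin 2 is best known as the chloride channel of the cilia of olfactory sensory neurons, where calcium entering through cyclic nucleotide-gated channels opens it and the chloride current amplifies the odour response. It also occurs in photoreceptor terminals and in some brain neurons, and it is no marker of neural progenitors.

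The RefSeq table holds 3 promoter windows for Ano2, each 250 bases before to 50 after a start. The first and the internal one are shown because the gene's regions begin only downstream of both, with each CG, the dinucleotide that DNA methylation targets, in capitals (forward strand, GRCm38.p6).
Ano2 first start, chr6:125690169-125690468: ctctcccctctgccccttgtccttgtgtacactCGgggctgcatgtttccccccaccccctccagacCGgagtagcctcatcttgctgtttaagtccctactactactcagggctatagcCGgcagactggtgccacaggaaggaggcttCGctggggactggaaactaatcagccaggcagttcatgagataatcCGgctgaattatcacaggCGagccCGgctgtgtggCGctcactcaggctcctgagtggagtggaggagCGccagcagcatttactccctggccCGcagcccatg
Ano2 internal start, chr6:125710938-125711237: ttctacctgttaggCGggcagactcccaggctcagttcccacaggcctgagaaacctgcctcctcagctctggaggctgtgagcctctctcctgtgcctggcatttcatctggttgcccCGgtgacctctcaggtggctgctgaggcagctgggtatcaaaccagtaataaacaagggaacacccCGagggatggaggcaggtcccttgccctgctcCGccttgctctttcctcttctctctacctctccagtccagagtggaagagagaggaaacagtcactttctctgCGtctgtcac
The first window holds 10 CG, a number reached by 43.5% of the 32851 promoter windows in that table. The internal window holds 5, reached by 62.0%, and the overlapping window chr6:125690369-125690668 holds 14, reached by 36.3%. No listed H3K9me3 region and no H3K27ac peak overlapped any of these windows. Nearly all listed regions were called different between genotypes, 14615 higher and 36027 lower in KO of 50654. A place or gene without a listed region may still carry H3K9me3, here and below. The nearest Ano2 region lay 30.6 kb from the first window and 9.86 kb from the internal one.

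All 38 Ano2 regions were called higher in KO in the authors' deposited table, where 28.9% of all regions were higher and 71.1% lower. The gene was chosen on these calls, so nothing is read from that contrast. The authors' log2 fold changes at Ano2 were 0.51 to 1.17 with a median of 0.80, and 7 regions reached 1. Their adjusted p in the deposited table was at most 0.00368 and was 0.001 or less at 30 regions. A G-test of the KO sum against the WT sum of a region gave the same p-values (largest difference 0.00674 on the log10 scale over 38105 regions), and it leaves the spread between animals out.

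The regions were all assigned to the gene body. They covered 54.7 kb, or 15.6% of the gene. Of the 38, 16 had the table's window length of 1000 bp, the median was 1100 bp and the longest was 3600 bp. The first began 30.7 kb after the gene start and the last ended 3.03 kb before the gene end. The listed regions thus ran over most of the gene, with none listed at its beginning. The median gap between neighbouring regions was 4.6 kb and the largest 37.1 kb. Whether a region is exonic or intronic was not determined, because exon positions were not used here.

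The table joins the 3 normalised values of a genotype in 1 cell without saying which animal each belongs to, so each is named by its place in the cell (the first listed value, and so on). Summed over the 38 regions, the KO libraries had 1949, 2561 and 2632 normalised reads and the WT libraries 768, 1572 and 1742. Every KO sum was above every WT sum, and the first listed WT value was far below the other WT values. The means were 2381 ± 376 in KO and 1361 ± 521 in WT (SD, n = 3 each), a ratio of 1.75 or 0.81 on the log2 scale. Behind these sums stood 765, 5875 and 3132 recovered reads in KO and 433, 1917 and 2403 in WT.

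Counting error alone gave the first listed WT sum an exact 95% Poisson interval of 697 to 843 normalised reads, which does not reach the 1503 at the low end of the interval of the second WT sum. The first listed KO sum had an interval of 1813 to 2092. These intervals cover counting error only. Without the first listed WT value the Ano2 log2 ratio was 0.52, and leaving out each other value gave 0.73 to 1.03. The KO mean stayed above the WT mean at all 38 regions whichever listed value was left out. Among the 122 other regions within 2 Mb the number of such regions likewise stayed at 75, so this is not particular to Ano2. The gene was chosen on these values, so nothing is read from it.

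**Figure D1:**
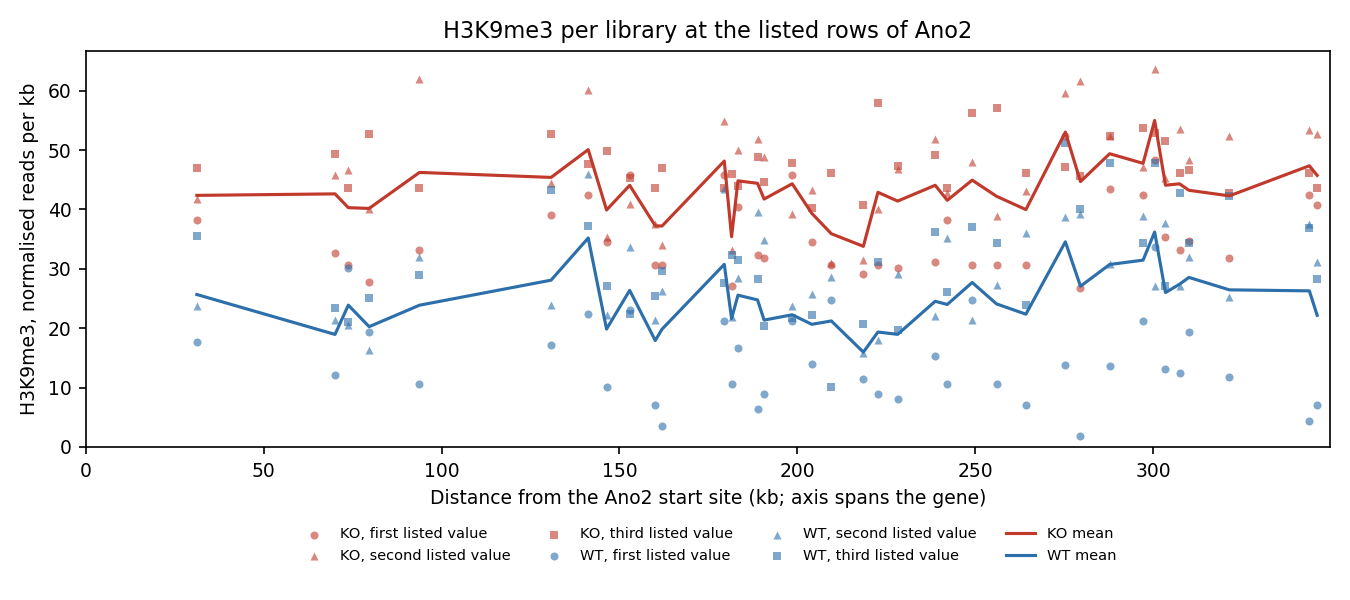
Normalised H3K9me3 reads per kb (vertical axis) at the 38 listed regions of Ano2 by distance from the gene start (horizontal axis, kb); symbols are single libraries and lines are the means of 3, red for KO and blue for WT. The KO mean lies above the WT mean at every region, and most of the lowest points are first listed WT values.

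Region by region, the KO and WT values did not overlap at 22 of 38 (57.9%), and overlapped at 16. All KO values exceeded all WT values at 20.2% of all listed regions and at 69.97% of those called higher, and since the gene was chosen on this contrast nothing is read from its share. The largest fold change was at chr6:125759201-125761700, with 81.5, 115 and 124 normalised reads in KO and 30.1, 53.3 and 58.7 in WT. All 3 KO values there exceeded all 3 WT values, and the authors' log2 fold change was 1.17. The longest region, chr6:125927401-125931000, had 112, 187 and 177 in KO and 55.0, 79.6 and 130 in WT. There the first KO value lay within the WT range, with a log2 fold change of 0.84. The smallest change was at chr6:125830901-125832400, with 63.7, 90.3 and 71.4 in KO and 33.7, 68.9 and 55.8 in WT. The first KO value there lay below the second WT value, and the log2 fold change was 0.51.

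Per kb of listed region, Ano2 had 35.6, 46.8 and 48.1 normalised reads in KO (43.5 ± 6.87, SD, n = 3) and 14.03, 28.7 and 31.9 in WT (24.9 ± 9.52, SD, n = 3). The median region of the gene had 43.7 per kb in KO and 24.3 in WT. All higher regions of the table, Ano2 included, had medians of 42.5 in KO and 23.7 in WT. These were close to the level at Ano2, but KO values of listed gains have a lower limit (next paragraph), so nothing is read from this. The regions that were lower in KO had medians of 19.1 in KO and 43.5 in WT. The authors' enrichment ratio at Ano2 had a median of 1.76 in KO (1.18 to 5.08) and 0.84 in WT (0.56 to 2.86). It was under 1 in WT at 24 of the 38 regions. Over all higher regions the medians were 1.89 in KO and 0.91 in WT, so a WT ratio under 1 is not particular to Ano2.

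Listed gains had a lower limit in the KO values. Among the 3555 higher regions of 1000 bp, the first KO value was never under 12 reads (30.57 normalised reads), and 23.9% sat exactly there, as did 7 of the 16 Ano2 regions of that length. The third KO value was at or above 43.70 in 99.6% of them and exactly there in 21.5%, as in 6 of the 16 at Ano2. The second KO value was never under 52 reads, but only 2.98% sat there and none of the Ano2 regions did, so values did not pile up at its limit. WT values had no such limit, with lowest counts of 0, 0 and 1 read.

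Cut into 3 equal parts from its start to its end, the gene held 5, 17 and 16 regions. Their median log2 fold changes were 0.95, 0.91 and 0.71 in that order. The KO level was 42.4, 41.8 and 45.6 normalised reads per kb and the WT level 21.7, 23.3 and 27.4, so the smaller ratio of the last part came with a higher WT level. The genotypes did not overlap at 5, 11 and 6 regions. These differences along the gene were not tested.

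The first listed WT value was the lowest WT value at 32 of the 38 regions and the lowest of all 6 values at the same number. Over all higher regions it was the lowest WT value at 49.2%, and over the lower regions at 37.1%. Its sum at Ano2 was 46.3% of the mean of the other WT sums, against a median over regions of 86.9% for all higher and 96.9% for all lower regions. The first KO value, from the shallowest library, was the lowest KO value at 34 of 38 regions. In the stretch of vomeronasal receptor genes described below it was not the lowest, with 38.5 normalised reads per kb against 30.7 for the second KO value. The limits of listed gains also differed between KO libraries, and why the first KO value was low at Ano2 was not tested. What sets the first WT library apart over this gene was not tested.

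The gain depended in size on the scaling. Over all listed regions the median log2 ratio was -0.94 with the authors' scaling, -0.17 with median-ratio scaling and -0.39 with equal sums outside 26 high-signal regions. The median over the Ano2 regions was 1.65 and 1.40 under these scalings. Both scalings raised KO values relative to WT values, with median shifts of 0.79 and 0.56 on the log2 scale. Regions above 0 with the authors' scaling, as all 38 were, could therefore only stay above 0, and nothing is read from that.

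Many genes had regions in 1 direction only. Of 5667 genes with a listed region, 150 had at least 10, and of these 13 were higher at all of them and 93 lower at all. Ano2 had the most regions of the 13, followed by Nlrp5-ps with 18. By number of higher regions it was the fifth, after Cntnap5a (79 of 84), Gm6367 (53 of 65), Cntnap5c (51 of 55) and Nell1 (42 of 48). Long genes can hold more regions, and these counts were not tested.

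Among 35 genes with 19 or more regions, likeness to Ano2 was measured as the Euclidean distance between the 6 centred log2 sums. Nell1, which encodes a secreted protein of bone and cartilage growth, was nearest at 0.41, then Cntnap5c at 0.54, Cntnap5b at 0.61, Dpp10 at 0.63 and Cntnap5a at 0.73. The Cntnap5 genes encode contactin-associated proteins of neurons, and DPP10 is an auxiliary subunit of potassium channels. Nell1 had 2117, 2847 and 3064 normalised reads in KO and 1181, 1922 and 1992 in WT. Its first listed WT sum, too, was the lowest, at 60.3% of the mean of the others, and its log2 ratio was 0.66, or 0.45 without that value. For Cntnap5a the first WT sum was 82.2% of the others and the log2 ratio was 0.87, or 0.78 without it.

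**Figure D2:**
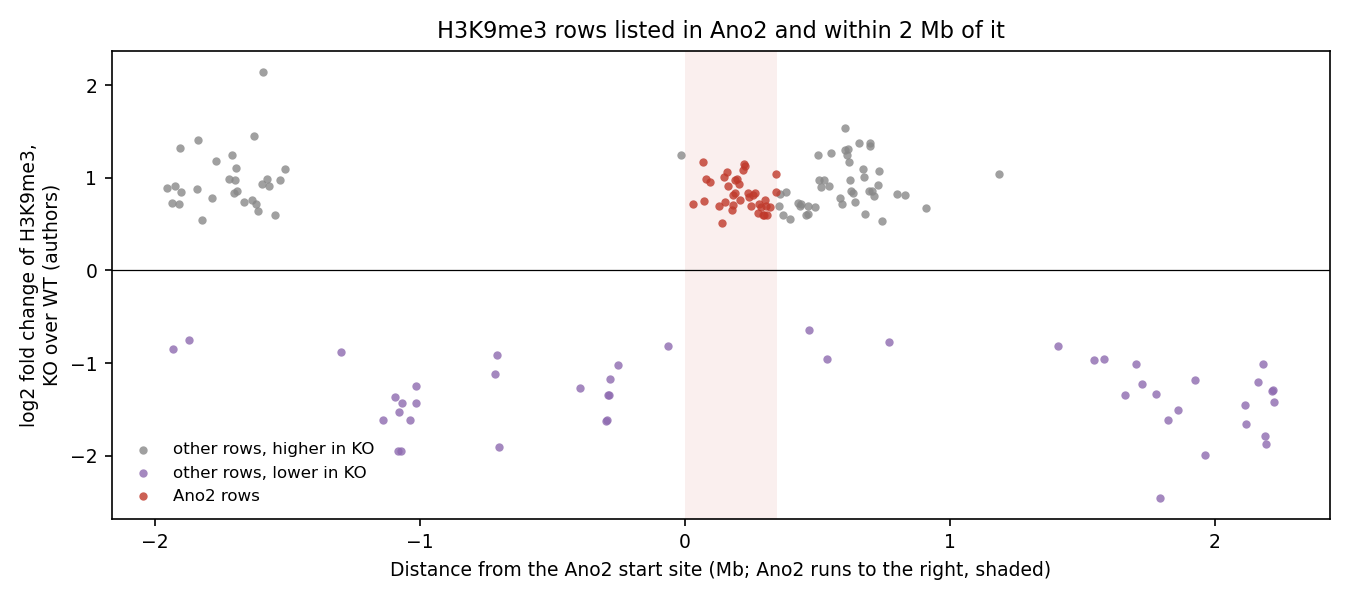
Authors' log2 fold change of H3K9me3, KO over WT (vertical axis), of each listed region in Ano2 (red, 38) and within 2 Mb of either end (122; grey higher, purple lower), by distance from the Ano2 start (horizontal axis, Mb). Higher regions form a stretch about Ano2 and a second one far before its start, with lower regions between them and beyond.

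Within 2 Mb of either end of the gene, 122 further regions were listed, 75 higher and 47 lower in KO. The share of higher ones was 61.5%, against 36.3% over chromosome 6 as a whole (1036 of 2854). They were not mixed evenly. Going outwards from the gene end in steps of 500 kb, 43 higher and 3 lower regions came first, then 2 higher and 0 lower, then 0 higher and 9 lower, and 0 higher and 12 lower in the last step. Outwards from the gene start the steps held 1 higher and 8 lower, 0 higher and 3 lower, 0 higher and 10 lower, and at the far end 29 higher and 2 lower.

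The Ano2 regions were part of an unbroken run of 50 higher regions at chr6:125676701-126157000, 480.3 kb long. The run began 13.7 kb before the gene start, inside Vwf, and ended 116.9 kb past the gene end. It was number 27 by its count of regions among 2248 runs of higher regions, the longest of which held 115 and the median 2. The region before it, chr6:125628101-125629100 in Vwf, had an authors' log2 fold change of -0.81. The region after it, chr6:126157601-126158900 in Ntf3, had -0.64.

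With 3 lower regions allowed, the higher regions extended over a block at chr6:125676701-126876700, 1.2 Mb in which 84 of 87 regions were higher. Its bounds, like those of the stretches named next, were drawn after the values were seen, so it gets no test. Beyond it, 21 of 21 regions up to the 2 Mb limit were lower. Before it, 21 of 21 regions at chr6:124393901-125629100 were lower, and before these a stretch at chr6:123735801-124180300 with the vomeronasal receptor genes Vmn2r23, Vmn2r24, Vmn2r25 and Vmn2r26 had 29 of 31 higher. That stretch ended 1510 kb before Ano2.

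The 49 regions of the block outside Ano2 had 32.5, 41.9 and 49.2 normalised reads per kb in KO and 15.49, 29.5 and 27.2 in WT. Their log2 ratio of 0.78 was near the 0.81 of Ano2, and the first listed WT value was the lowest WT value at 43 of the 46 higher regions here too. The receptor stretch had 38.5, 30.7 and 44.5 per kb in KO and 19.8, 22.3 and 22.7 in WT, with a log2 ratio of 0.81. There the WT values lay close together, and the first was the lowest WT value at 12 of 29 higher regions. Without that value the log2 ratio was 0.75 in the receptor stretch, 0.54 in the block outside Ano2 and 0.52 in Ano2. The ratio thus moved more in Ano2 than in the receptor stretch when the first WT library was left out, a difference that was not tested.

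The lower stretch before the block had 9.79, 13.5 and 28.3 normalised reads per kb in KO and 43.6, 47.6 and 46.3 in WT, a log2 ratio of -1.42. The one past the block had 8.20, 13.8 and 29.0 in KO and 44.5, 50.2 and 42.9 in WT, a log2 ratio of -1.43. In both, all KO values were below all WT values, and the third KO value was the highest of the KO values. The WT level of these stretches was close to the KO level of Ano2. Over the whole table the WT median of the lower regions, 43.5 per kb, was likewise close to the KO median of the higher ones, 42.5. The match is thus not particular to these stretches.

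**Figure D3:**
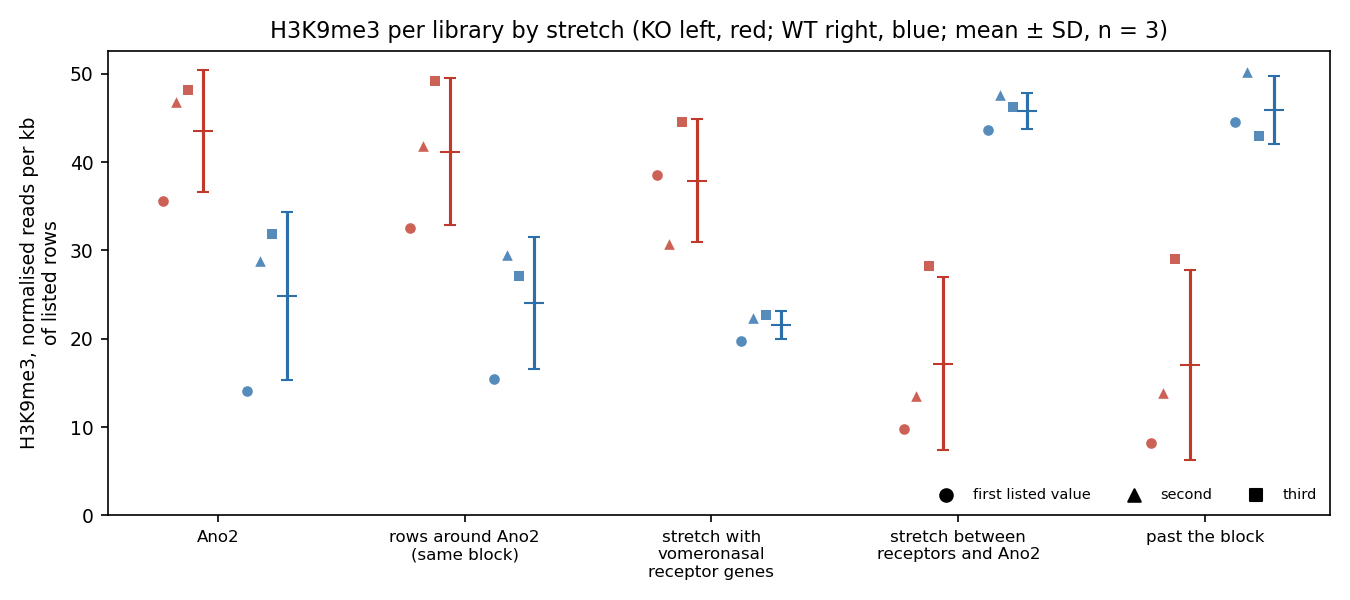
Normalised H3K9me3 reads per kb of listed region (vertical axis) in each library for Ano2, the rest of its block, the vomeronasal receptor stretch, the lower stretch between them and the lower stretch past the block (horizontal axis), KO in red to the left of WT in blue, with means ± SD of 3. The first listed WT value is low in Ano2 and its block but not in the other stretches.

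With replicates taken into account by limma on log2(value + 1) over the whole table, 1 of the 122 regions near Ano2 was higher and 11 were lower at an adjusted p of 0.05 or less (1.24% of the whole table were higher and 14.9% lower). The authors had picked the listed regions on these same libraries, which limma takes no account of. The higher one was chr6:123921501-123923300 in the receptor stretch, with 73.9, 63.7 and 78.2 normalised reads in KO and 21.3, 43.5 and 30.5 in WT. Its log2 fold change was 1.21 (SE 0.35, limma adjusted p = 0.0492). The adjusted p of the 11 lower ones was 0.0471 to 0.0497.

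On recovered reads, limma-voom called 31 of the 122 regions higher and 45 lower, where it called 14.1% of the table higher and 58% lower. The KO values were all above the WT values at 49 of the 122 and all below at 38, against 20.2% and 54.2% of the table.

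The neighbouring regions fell in 14 genes, of which 6 had higher regions only, 6 lower only, and Vwf and Ntf3 both. Gm10415, a predicted gene in the block, had 8 regions, all higher, with 399.9, 525 and 638 normalised reads in KO and 144, 287 and 318 in WT. Every KO sum exceeded every WT sum, with a log2 ratio of 1.06, or 0.78 without the first WT value. Ntf3, which encodes the neuronal growth factor neurotrophin-3, had 6 higher and 1 lower region, and its sums were 232, 348 and 410.1 in KO and 174, 307 and 249 in WT. These overlapped, and the log2 ratio was 0.44, or 0.25 without the first WT value.

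Vwf, the blood clotting factor gene just before Ano2, had 1 higher region at its Ano2 end and 1 lower. Its summed values were 68.8, 72.8 and 94.1 in KO and 51.4, 79.6 and 58.0 in WT, which overlapped. Among the vomeronasal receptors, which detect pheromones in the accessory olfactory system, Vmn2r24 had 3 higher regions with 107, 115 and 166 in KO and 47.9, 72.2 and 75.4 in WT, a log2 ratio of 0.99. Vmn2r23, Vmn2r25 and Vmn2r26 had log2 ratios of 0.89, 1.12 and 0.75, and the protein kinase gene Dyrk4 had 1.04.

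The genes of the lower stretches went the other way. Parp11, which encodes an ADP-ribosyltransferase, had 2 regions with summed values of 15.3, 44.0 and 122 in KO and 220, 236 and 167 in WT, a log2 ratio of -1.78. Its region chr6:127484901-127486700 was among those that passed limma, at a log2 fold change of -2.52 (SE 0.50, limma adjusted p = 0.0471). Tspan11, a tetraspanin gene, had 4 lower regions with 40.8, 60.6 and 117 in KO and 174, 219 and 208 in WT. Its log2 ratio was -1.46, and 1 region passed limma (adjusted p = 0.0484).

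Lpcat3, a phospholipid-remodelling acyltransferase gene, had 2 lower regions with 35.7, 20.9 and 54.6 in KO and 90.4, 99.2 and 89.9 in WT. C1s2, a complement protease gene, had 1 lower region with 10.2, 14.4 and 31.1 in KO and 46.1, 57.4 and 46.4 in WT. In both genes all KO values lay below all WT values, with log2 ratios of -1.33 and -1.43. Tigar and Cracr2a, each with 1 lower region, had log2 ratios of -0.82 and -1.18.

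Of the 9 other anoctamin genes, 6 had a listed region and Ano7, Ano8 and Ano9 had none. Their 18 regions were called higher at 5 and lower at 13 in the authors' table (28.9% and 71.1% of all regions). All 5 higher ones lay in Ano5. By limma none passed as higher and 1 as lower (1.24% and 14.9% of the table). Unadjusted limma p was under 0.05 at 4 higher and 6 lower ones, against 5845 and 24563 of 50654 over the table. Limma-voom called 4 higher and 11 lower (14.1% and 58% of the table). The median log2 fold change over the 18 was -1.22, against -0.94 over the table. Under both other scalings, which raise KO relative to WT, 13 regions stayed below 0. The 5 regions above 0 could only stay there.

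Ano5, whose loss causes muscle disease in humans, had 204, 256 and 275 normalised reads over its 5 regions in KO and 121, 117 and 133 in WT. The genotypes did not overlap, the WT values lay within a narrow range, and the log2 ratio was 0.98. Ano6, the phospholipid scramblase of platelets and other cells, had 61.1, 83.3 and 239 over 6 regions in KO and 282, 353 and 310.3 in WT, with a log2 ratio of -1.30. Ano10 had a single region of 6.2 kb with 84.1, 85.9 and 150 in KO and 269, 331 and 271 in WT, a log2 ratio of -1.44, and it was the anoctamin region that passed limma. Ano1, the calcium-activated chloride channel of epithelia and smooth muscle and the closest relative of Ano2 in function, had 20.4, 22.2 and 93.3 over 2 regions in KO and 99.3, 132 and 102 in WT, a log2 ratio of -1.30. Ano3 and Ano4, with 2 regions each, had -1.35 and -0.95.

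**Figure D4:**
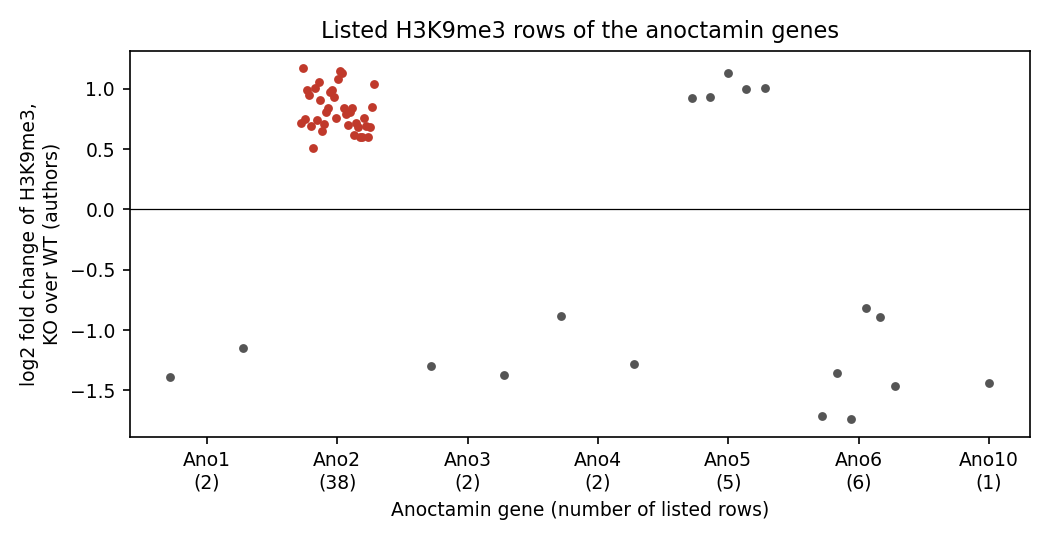
Authors' log2 fold change of H3K9me3, KO over WT (vertical axis), of each listed region of the anoctamin genes that have one (horizontal axis, regions of a gene in order of position). The 38 Ano2 and 5 Ano5 regions lie above 0 and the 13 regions of Ano1, Ano3, Ano4, Ano6 and Ano10 below it.

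Genes that work with Ano2 in the odour response mostly had no listed region, which is no measure of how much H3K9me3 they carried. Of 17 olfactory transduction genes, 3 had a region: Adcy3, the adenylyl cyclase that makes cyclic AMP (1), Slc24a4, the exchanger that clears calcium (4), and the phosphodiesterase gene Pde1c (5). All 10 regions were lower in KO in the authors' table, as were 71.1% of all regions. None passed limma, by which 14.9% of the table were lower. Unadjusted limma p was under 0.05 at 5 of the 10, against 24563 lower ones of 50654 over the table. Limma-voom called 8, where it called 58% of the table lower. Pde1c had 129.9, 225 and 303 normalised reads in KO and 287, 527 and 401 in WT, which overlapped, with a log2 ratio of -0.88. Under median-ratio scaling 1 of the 10 lay above 0.

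Of 20 genes for other chloride channels and related proteins, 5 had regions, 13 in all. All 13 were lower in KO in the authors' table, as were 71.1% of all regions. By limma 4 passed as lower, where it called 14.9% of the table lower. They were 1 in Clcn5, a chloride-proton exchanger gene on the X chromosome, 1 in Lrrc8b and 2 in Lrrc8d, subunits of volume-regulated anion channels. For Clcn5 the KO animals were all male and 2 of 3 WT animals female, so genotype and sex cannot be told apart there. Limma-voom called 9. Lrrc8d had 135, 149.98 and 261 normalised reads in KO and 447, 446 and 369 in WT, a log2 ratio of -1.21. Under median-ratio scaling 1 of the 13 lay above 0. No gene of either list had a higher region.

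H3K27ac was measured in other animals and took no part in the choice of the gene. No H3K27ac peak lay in Ano2 or within 10 kb of it in any of the 3 KO or 3 WT libraries. With 0 in every library, an exact permutation test has nothing to compare (p = 1). Of 533 autosomal protein-coding genes of 300 kb or more, 31 (5.82%) had no peak in any library, and 28 of these had a listed H3K9me3 region. In 3 of the 28, Ano2 among them, all H3K9me3 regions were higher in KO.

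The peak nearest to the start of Ano2 lay 117, 99.8 and 117 kb before it in KO and 59.0, 100.3 and 117 kb in WT. Past the gene end the nearest peak was 699.9, 520.3 and 728 kb away in KO and 66.5, 520.3 and 707 kb in WT. The nearest one in WT replicate 1 lay at Ntf3 and was seen in no other library. The genotypes overlapped at both ends of the gene (two-sided exact permutation p = 0.7 before and p = 0.4 past it, where 0.1 is the smallest that 3 against 3 can give).

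Within 2 Mb of Ano2 there were 66, 117 and 35 peaks in KO and 84, 113 and 44 in WT. The counts overlapped and averaged 72.7 ± 41.4 in KO and 80.3 ± 34.6 in WT (SD, n = 3 each, exact permutation p = 0.8). As a share of all peaks of a library they were 0.251%, 0.274% and 0.306% in KO and 0.263%, 0.303% and 0.354% in WT (exact permutation p = 0.5). Replicate 3 of each genotype had the fewest peaks, 11446 in KO and 12446 in WT, against 26344 to 42651 in the other libraries. Within the title number shared by 1 library of each genotype (replicate 1) the difference, KO minus WT, was -18 peaks, and within that shared by 2 of each it was -2.5. The difference of the means changed sign with the library left out, at -29.8 to 11.2 peaks.

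Peaks were densest before the block. The block held 3, 5 and 4 peaks in KO and 4, 3 and 4 in WT, none within the run of higher regions except the WT replicate 1 peak at Ntf3. The stretch of lower regions before the block held 53, 80 and 26 in KO and 58, 78 and 29 in WT. Per Mb that was 42.9, 64.8 and 21.0 in KO and 47.0, 63.1 and 23.5 in WT, against 2.50, 4.17 and 3.33 in KO and 3.33, 2.50 and 3.33 in WT over the block. The lower stretch past the block had 8.60, 25.8 and 4.298 per Mb in KO and 18.05, 27.5 and 9.45 in WT, so its KO replicate 3 was close to the level of the block. The receptor stretch held none in any library. The genotypes overlapped in each of these counts except the zeros (exact permutation p of 0.5 to 1). The regions themselves hardly met any peak in either direction: no Ano2 region and no other higher region within 2 Mb was overlapped by one, and of the 47 lower regions 0, 1 and 0 were in KO and 0, 0 and 1 in WT.

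**Figure D5:**
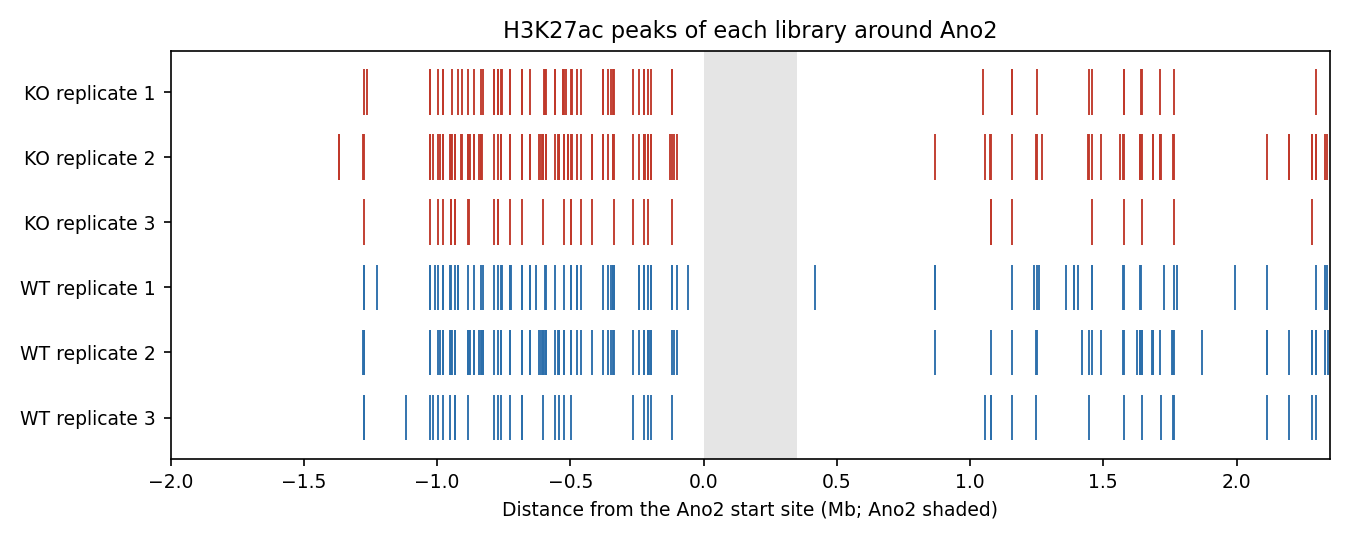
H3K27ac peaks (vertical ticks) of the 3 KO libraries (red) and 3 WT libraries (blue) by distance from the Ano2 start (horizontal axis, Mb), with the gene shaded. No tick falls in the gene, and ticks are dense before it in every library.

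Among the anoctamins, Ano1, Ano3, Ano6 and Ano10 had a peak within 1 kb of the gene in all 6 libraries, Ano8 in 4 and Ano4 in 3. Ano2, Ano5, Ano7 and Ano9 had one in none. Vwf, Lpcat3 and Parp11 near Ano2 had one in all 6, while Gm10415, Dyrk4, C1s2 and the 4 vomeronasal receptor genes had none. A missing peak in these lists is no measure of how strong the mark was.

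As a check of the labelled cells, 7 neural progenitor markers had a peak at 4, 4 and 3 genes in KO and 5, 5 and 1 in WT. Nes had one in all 6 libraries, Sox1 and Vim in 5, Sox2 in 4 and Dlx1 in 2, both WT, while Dlx2 and Gsx2, markers of the ganglionic eminence, had none. No excitatory neuron marker of 3 had a peak. Astrocyte markers had one at 3, 3 and 2 of 3 genes in KO and 2, 2 and 0 in WT, and oligodendrocyte markers at 1, 2 and 1 of 3 in KO and 1, 2 and 0 in WT. Of the 4 olfactory sensory neuron markers, the defining Omp and Cnga2 had none, and the other two had peaks at 2, 2 and 0 genes in KO and 2, 2 and 1 in WT. Microglial markers had one at 1, 1 and 0 genes in KO and in WT alike, and of the endothelial markers 1 had a peak in each library. Their part in the H3K9me3 values of Ano2 was not tested.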

How the data were processed

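Ano2, its neighbours and the gene lists were chosen with earlier results of these data known. Per the submitters' processing notes, Bowtie2 2.3.4.3, MACS2 and build mm10 were used; the sources used here do not name the tool that compared the H3K9me3 libraries. The authors deposited H3K9me3 as 1 table of regions from 1000 bp windows, and KO over WT was read from its name. It holds normalised reads per library (joined, in no stated order), their group means as a normalised signal, the authors' enrichment ratio over an unstated background, log2 fold changes, and p-values, per the file headers. The H3K27ac files are peak lists that the authors deposited per library, and each peak carries a score, its fold over background, and its p and q as −log10; only positions and q were used.

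Each listed value is a whole multiple of a step (tolerance 0.1 reads, 100% of low values), which gave the recovered reads. Over the whole table the KO positions summed to 11.0 M, 36.4 M and 13.7 M reads (M, mega), and the WT positions to 15.9 M, 19.6 M and 28.4 M. Depth of the H3K27ac libraries is unknown. limma 3.58.1 (R 4.3.3) was fitted over all 50654 regions on log2(value + 1), with a trended prior variance and Benjamini-Hochberg adjustment, after it was tested on simulated data; fold changes are on that scale. limma-voom on recovered reads was the alternative. H3K27ac counts were compared by two-sided exact permutation tests (scipy 1.17.1). Per the series design each replicate is another animal. Listed H3K9me3 values carry no animal, and title numbers there are mixed with genotype, so no pairing could be formed. The H3K27ac title numbers are balanced over genotype (508 with 1 KO and 1 WT library, 2982 with 2 and 2), and their meaning is not stated; they were used as a block in an added alternative.

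Genes named with values were Ano2, the 6 neighbours with the most regions and the 4 with the smallest adjusted p. Also named were listed anoctamins, list members with regions, and the 5 genes most like Ano2 among those with 19 or more regions. Other names were added after the values were seen. Alternatives were another pseudocount, a minimum mean, 2 scalings, other distances, a stricter q and each value left out. A progenitor marker and a long gene are not reported here.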

Additional observations from a re-analysis of the deposited data

How the results depend on the processing

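At Ano2 the log2 ratio of 0.81 was 1.65 under median-ratio scaling and 1.41 with equal sums outside the high-signal regions, and 0.52 to 1.03 with 1 listed value left out. The 38 regions higher in KO became 22 when KO and WT values had to be apart. Counts of limma calls near Ano2 moved most. Higher calls within 2 Mb, 1 in the main test, were 14 with a pseudocount of 5, 73 with median-ratio scaling, 31 with limma-voom, 0 within 1 Mb, 9 within 5 Mb and 0 to 11 with 1 value left out. Lower calls, 11 in the main test, were 26, 6, 45, 3, 23 and 0 to 45 in the same order. For the other anoctamins, 0 higher and 1 lower call became 1 and 5 with a pseudocount of 5, 5 and 0 with median-ratio scaling, 4 and 11 with limma-voom, and 0 to 1 and 0 to 13 with 1 value left out. Lower calls of olfactory transduction genes, 0 in the main test, were 3 with a pseudocount of 5, 8 with limma-voom and 0 to 9 with 1 value left out. Those of chloride channel genes, 4 in the main test, were 1 with median-ratio scaling, 9 with limma-voom and 0 to 12 with 1 value left out. Counts over the whole table moved too, so such moves are not particular to Ano2 or the gene lists. Of 50654 regions, the main test called 627 higher and 7551 lower, and a pseudocount of 5 gave 2254 and 16857. Median-ratio scaling gave 14045 and 3025, and limma-voom 7133 and 29385. Without the third WT value limma called 10 higher and 0 lower, and without the third KO value 2986 and 30932. It called none over the table without any other value. limma-voom on the gene lists, and the count of regions with 1 value left out, were added after the data were seen. The H3K27ac difference within 2 Mb, -7.67 peaks, was 1 with a q of 0.001 or less, and -29.8 to 11.2 with 1 library left out. The causes were not tested. With the H3K27ac title numbers as a replicate block, added after the data were seen, the difference within 2 Mb was -7.67 peaks (exact permutation p = 0.667, where 0.167 is the smallest of 12 arrangements) and that in Ano2 was 0, so neither call changed. For H3K9me3, no paired analysis was possible because the listed values carry no animal or number. The first KO value rests on the fewest reads, and 3 animals a genotype cannot give an exact p under 0.1.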

Other observations

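Ano5, the other anoctamin with regions called higher in KO, and Nell1 lie on the same stretch of chromosome 7, with 647 kb between them. Nell1 was the gene most like Ano2 across libraries among the 35 with 19 or more regions. Genes with fewer regions, such as Gm10415 near Ano2, were not compared for likeness. That Ano5 and Nell1 lie together was seen after the values were known. Of the 70 regions between them, 61 were higher and 9 lower in KO, with 33.9, 40.8 and 46.1 normalised reads per kb in KO and 21.8, 29.2 and 29.6 in WT, a log2 ratio of 0.58. Nell1 itself had 42 higher and 6 lower regions, and the 500 kb before it had 0 higher and 8 lower, with a log2 ratio of -1.31. The 500 kb past Ano5 had 4 higher and 3 lower.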
